A study of Mus musculus with 2 samples.

Results

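The let-7 microRNAs form an old and highly conserved microRNA family, and 6 of its mouse members are made from a single hairpin gene each: Mirlet7b, Mirlet7d, Mirlet7e, Mirlet7g, Mirlet7i and Mir98. These 6 genes were taken by name from 2202 annotated mouse microRNA genes and described in small RNA sequencing of hippocampal tissue. The tissue came from female B6CASTF1/J mice aged 18 to 20 months, first-generation hybrids of a laboratory B6 and a wild-derived CAST parent. The 2 libraries, of RNA shorter than 30 nt, are labelled biological replicates 1 and 2 and form 1 group, with no treatment, age or genotype contrast. The tissue is labelled as a layer of the hippocampus, without naming the layer. The samples carry different animal numbers but 1 shared donor record, so the spread between them may in part be technical.

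A microRNA guides silencing complexes to messenger RNAs through its seed, bases 2 to 8 counted from the 5′ end. Each hairpin can give a mature strand from its 5′ arm (5p) and one from its 3′ arm (3p), and for let-7 the 5p strand is the main product. Let-7 microRNAs accumulate as cells differentiate and restrain growth and progenitor genes such as Lin28a, Hmga2 and Myc. LIN28 proteins in turn block let-7 maturation by binding the precursor between its arms. In brain, let-7 is known as abundant in mature neurons, and let-7b in mouse limits neural stem cell proliferation by repressing Nr2e1.

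The 5p strands of the 6 genes are shown first because the counts depend on how well these near-identical RNAs can be told apart. Sequences are from RefSeq (GRCm38.p6), in which all 12 let-7 family genes were found. Capitals mark the seed.
let-7b-5p: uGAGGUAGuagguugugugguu
let-7d-5p: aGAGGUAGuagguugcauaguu
let-7e-5p: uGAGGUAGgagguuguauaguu
let-7g-5p: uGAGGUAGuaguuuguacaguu
let-7i-5p: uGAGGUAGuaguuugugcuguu
miR-98-5p: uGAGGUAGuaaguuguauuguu
The duplicated relatives, each encoded by 2 hairpins, are these.
let-7a-5p: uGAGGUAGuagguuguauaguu
let-7c-5p: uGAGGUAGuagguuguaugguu
let-7f-5p: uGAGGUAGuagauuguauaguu

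All 6 single-copy 5p strands carry the same seed, so they differ in the bases after it and, for let-7d, in the first base. Relative to let-7a-5p, with positions counted from 1 at the 5′ end, let-7e-5p has 1 difference (U9G). Let-7b-5p has A17G and A19G, let-7d-5p U1A and U16C, let-7g-5p G12U and U18C, and miR-98-5p G11A and A19U. Let-7i-5p is the most distant, with G12U, A17G, U18C and A19U. The closest pair that joins a single-copy and a duplicated member, beside let-7e and let-7a, is let-7b and let-7c, which differ at 1 base. Let-7g and let-7i share G12U and differ from each other at 2 bases.

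Every single-copy strand was unique at full length among the 2202 annotated hairpins, but some only beyond 16 bases. The search took exact matches of bases counted from the 5′ end and did not cover reads with a mismatch or another start. The first 16 bases of let-7b-5p also occur in the 4 hairpins of let-7a and let-7c. Those of let-7g-5p occur in Mirlet7i, and those of let-7i-5p in Mirlet7g. Those of let-7e-5p occur in Mir7k, an annotated hairpin outside the 12 family genes. From 17 bases on, all 4 strands were unique, while let-7d-5p and miR-98-5p were unique already at 14, the shortest length examined. By contrast, let-7a-5p, let-7c-5p and let-7f-5p each match 2 hairpins even at full length. The rest of the genome was not searched, and read lengths are not given in the files.

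**Figure D1:**
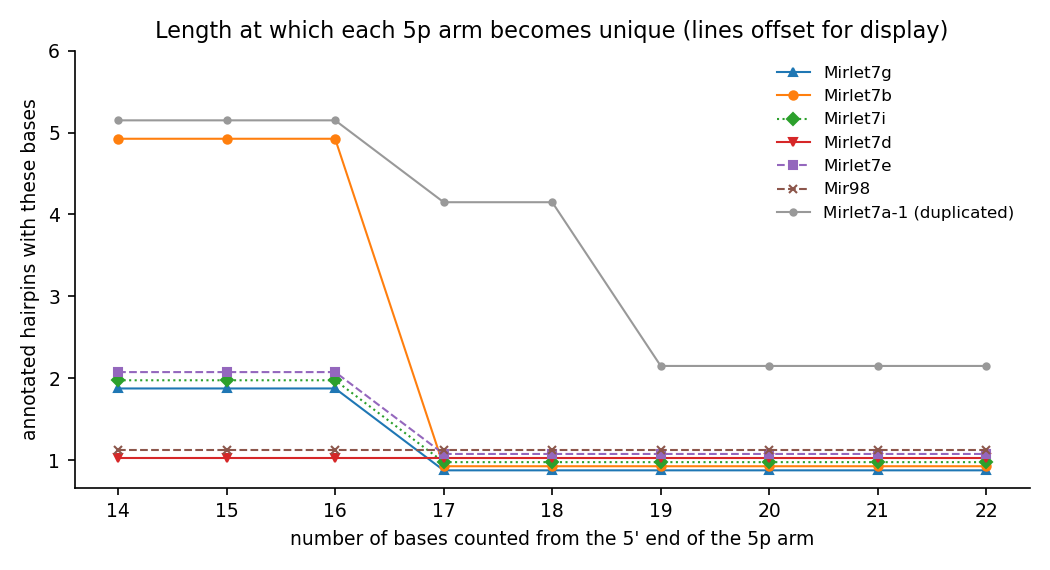
Number of annotated mouse hairpins (vertical axis) that contain the first bases of each 5p strand, against the number of bases counted from the 5′ end (horizontal axis). Lines are offset slightly for display; all 6 single-copy genes reach 1 hairpin by 17 bases, whereas the duplicated Mirlet7a-1 stays at 2.

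The 3p strands were unique from 14 bases on for all 6 genes. They are shown because the files count whole hairpins, so that both strands enter 1 number. Capitals again mark bases 2 to 8.
let-7b-3p: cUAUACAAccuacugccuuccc
let-7d-3p: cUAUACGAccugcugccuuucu
let-7e-3p: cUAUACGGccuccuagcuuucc
let-7g-3p: aCUGUACAggccacugccuugc
let-7i-3p: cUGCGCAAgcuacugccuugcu
miR-98-3p: cUAUACAAcuuacuacuuuccu
Only let-7b-3p and miR-98-3p share bases 2 to 8 among these 6. The files do not separate the strands, so the part of each level that comes from the 3p strand is not known.

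The stretch between the arms, which LIN28 proteins contact in the precursor, was compared among Mirlet7b, Mirlet7d, Mirlet7e, Mirlet7g and Mirlet7i. The motif GGAG, known as a LIN28 contact, was searched on the transcribed strand only. Mirlet7d, Mirlet7e, Mirlet7g and Mirlet7i hold it, whereas Mirlet7b does not. The stretches are shown to compare these letters. Capitals mark the motif.
Mirlet7d: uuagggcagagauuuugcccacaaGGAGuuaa
Mirlet7e: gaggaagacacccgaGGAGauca
Mirlet7g: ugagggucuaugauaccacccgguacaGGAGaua
Mirlet7i: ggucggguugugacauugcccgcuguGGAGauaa
Mirlet7b: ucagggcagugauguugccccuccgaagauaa
Where present, the motif ended 3 or 4 bases before the 3p strand. Of 644 mouse hairpins with both strands placed, 52 (8.07%) held GGAG between the arms. That stretch had a median of 16 bases over those hairpins and 32 over these 5 genes, so the share is not matched for length. Of the 5 duplicated relatives with both strands placed, 4 also held it (Mirlet7a-1, Mirlet7c-1, Mirlet7f-1 and Mirlet7f-2), and Mirlet7c-2 did not. The match is a description of the letters and shows no binding.

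Together the 6 genes took 34.4% of all sense counts in replicate 2 and 29.0% in replicate 1, or 31.7% ± 3.82 (SD, n = 2). Here a count is a read assigned to a gene on its own strand, and levels are given in CPM, the count divided by the library's gene sum and multiplied by 1000000. Replicate 2 held 4521208 such counts and replicate 1 held 2255838. In bulk tissue, fewer cells of a type and less RNA per cell cannot be told apart. All 12 mature strands of the 6 genes are 22 bases long, so no length scaling was applied.

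Reads that fit several places, 47.9% of the reads of replicate 2 and 36.2% of replicate 1, are outside the counts. Genes with several copies can therefore rank too low. By counted reads, Mirlet7g was the highest of all 2202 genes in both libraries. It had 144188 CPM in replicate 2 and 97210 CPM in replicate 1, a mean of 120699 ± 33219 CPM (SD, n = 2). Mirlet7b reached 81990 CPM in replicate 2 (rank 2) and 68019 CPM in replicate 1 (rank 3). Mirlet7i reached 61102 CPM in replicate 2, against 56487 CPM in replicate 1, at rank 4 in each. These 3 genes thus kept the same order in both libraries, and their values did not overlap.

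Mirlet7d and Mirlet7e changed places. Mirlet7d had 22380 CPM in replicate 2 (rank 11) and 41456 CPM in replicate 1 (rank 6). Mirlet7e had 26944 CPM in replicate 2 (rank 9) and 20203 CPM in replicate 1 (rank 11). Mir98, the only one of the 6 not named let-7, was the lowest, at 7341 CPM in replicate 2 (rank 30) and 6603 CPM in replicate 1 (rank 34). Even the lowest of the 6 was among the abundant genes by counted reads.

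Counting error was small beside the spread between the libraries. For Mirlet7g the exact 95% Poisson interval was 143839 to 144539 CPM in replicate 2 and 96804 to 97618 CPM in replicate 1. For Mir98 it was 7262 to 7420 CPM in replicate 2 and 6498 to 6710 CPM in replicate 1. The SD over both libraries was 42.3% of the mean for Mirlet7d, 27.5% for Mirlet7g and 20.2% for Mirlet7e. It was 13.2% for Mirlet7b, 7.48% for Mir98 and 5.55% for Mirlet7i. In CPM on the gene sum, Mirlet7d was therefore the least and Mirlet7i the most alike between the libraries among the 6 genes.

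In the order of mean levels, 4 of the 5 neighbouring pairs were apart and 1 was not. A pair was taken as apart where both libraries gave the same order and the means differed by more than the sum of the SDs. Mirlet7g exceeded Mirlet7b by 45695 CPM, against 43098 CPM for the summed SDs, so this pair passed narrowly. Mirlet7b exceeded Mirlet7i by 16210 CPM (summed SDs 13143 CPM), and Mirlet7i exceeded Mirlet7d by 26876 CPM (16752 CPM). Mirlet7d exceeded Mirlet7e by 8345 CPM on average, within the summed SDs of 18256 CPM. Mirlet7e exceeded Mir98 by 16601 CPM (5289 CPM), 3.67-fold in replicate 2 and 3.06-fold in replicate 1. A two-sided exact permutation test of 2 values against 2 gave p = 0.33 for each of the 4 pairs, which is the smallest it allows. Without replicate 2 the difference was 29191 CPM for Mirlet7g minus Mirlet7b and 15030 CPM for Mirlet7i minus Mirlet7d, so their size rests on that library while their direction does not.

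**Figure D2:**
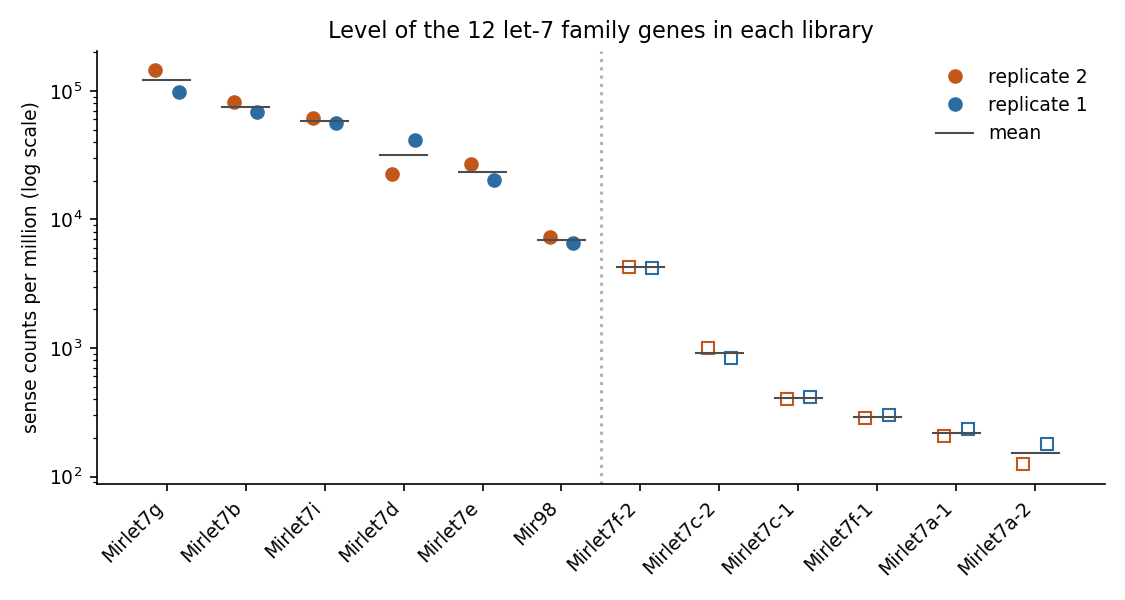
Sense CPM (log scale) of the 12 let-7 family genes in each library, with lines at the mean. Filled circles are the 6 single-copy genes and open squares the 6 duplicated genes. All single-copy genes lie above the counted reads of all duplicated ones in both libraries. Reads that fit several places are not counted.

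Within the let-7 family of 12 genes, the 6 single-copy genes held nearly all counts. Their share was 98.2% in replicate 2 and 97.9% in replicate 1, or 98.1% ± 0.20 (SD, n = 2). Of the 6 duplicated genes, Mirlet7f-2 was highest, at 4278 CPM in replicate 2, against 4202 CPM in replicate 1. The other 5 lay between 125 and 1000.4 CPM in replicate 2 and between 180 and 836 CPM in replicate 1. Reads that fit several places are a total of their own in these files. They numbered 3.74 per count of the 6 genes in replicate 2 and 4.14 in replicate 1. The share therefore describes counted reads: reads of let-7a, let-7c and let-7f, whose 5p strands match 2 hairpins, can be among the uncounted ones, and their true share in the family is not known.

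Mirlet7g led the family with 41.2% of its counts in replicate 2 (95% exact binomial interval 41.1 to 41.2) and 32.8% in replicate 1 (32.7 to 32.9). Mirlet7b held 23.4% in replicate 2 and 23.0% in replicate 1, the steadiest of the larger shares. Mirlet7i held 17.4% in replicate 2 and 19.1% in replicate 1. These 3 genes made up most of the counted reads of the family in both libraries. Mirlet7d held 6.39% (6.35 to 6.43) in replicate 2 and 14.0% (13.9 to 14.1) in replicate 1. Mirlet7e held 7.69% in replicate 2 and 6.82% in replicate 1, and Mir98 held 2.10% in replicate 2 and 2.23% in replicate 1. The main change in the make-up of the counted reads was thus 8.34 percentage points more for Mirlet7g in replicate 2, with a change of -7.61 points for Mirlet7d.

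**Figure D3:**
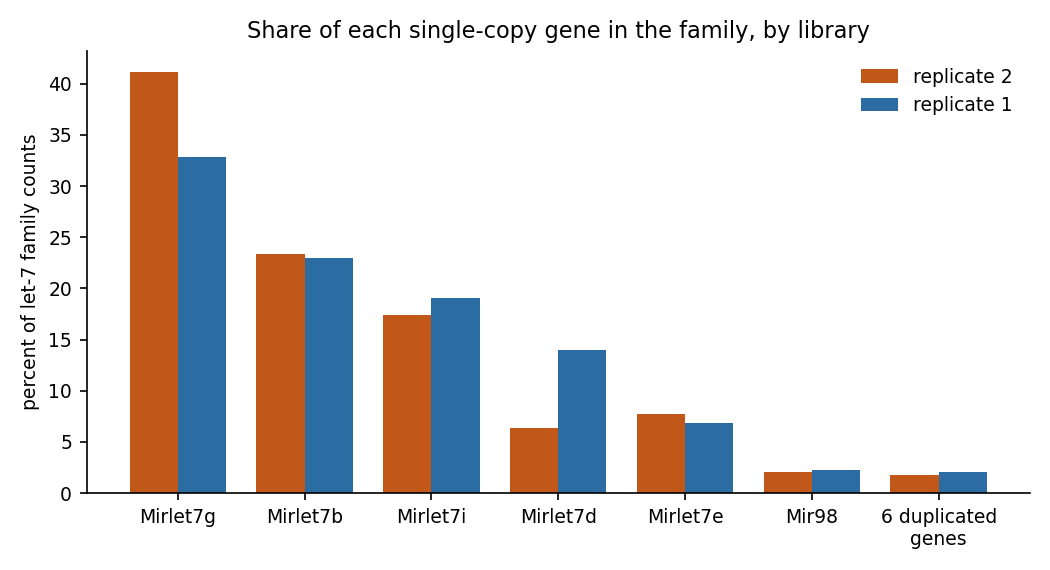
Percent of the summed counts of the 12 let-7 family genes held by each single-copy gene and by the 6 duplicated genes together, in replicate 2 (left bars) and replicate 1 (right bars). Mirlet7g takes 41.2% in replicate 2 and 32.8% in replicate 1, and Mirlet7d 6.39% in replicate 2 and 14.0% in replicate 1.

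Grouped by sequence, Mirlet7g and Mirlet7i, which share G12U, held 58.6% of the family counts in replicate 2 and 51.9% in replicate 1. The other 4 single-copy genes held 39.6% in replicate 2 and 46.0% in replicate 1. As a share of all counts, the sum of the other 4 was nearly alike, at 13.9% in replicate 2 and 13.6% in replicate 1. Within this sum, opposite differences offset each other. Mirlet7d had 2.24% in replicate 2, against 4.15% in replicate 1. Mirlet7b (8.20% against 6.80%), Mirlet7e (2.69% against 2.02%) and Mir98 (0.734% against 0.660%) were higher in replicate 2. Mirlet7g and Mirlet7i together stood at 20.5% of all counts in replicate 2 and 15.4% in replicate 1. Most of that difference lay in Mirlet7g (14.4% against 9.72%), while Mirlet7i had 6.11% in replicate 2 and 5.65% in replicate 1.

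Outside the 12 genes, the seed occurred in the mature strands of 2 further genes in the RefSeq table, Mir7k and Mir1961. Mir7k, whose mature strand is named let-7k, had 0 counts in replicate 2 and 3 in replicate 1, and Mir1961 had 0 in both. A count of 0 allows up to 3 counts, or 0.664 CPM in replicate 2 and 1.33 CPM in replicate 1, for counting error only.

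Between the libraries, 5 of the 6 genes were higher in replicate 2 and Mirlet7d was lower, but none of them changed by 2-fold when counts were scaled to all gene counts. The test was a two-sided conditional binomial one, exact, on each gene's counts. Its p-values were adjusted by Benjamini-Hochberg over the 495 genes whose mean reached 1 CPM. Genes were called at an adjusted p under 0.05 and 2-fold or more. Of all tested genes, 87 (17.6%) were called, 19 (3.84%) higher and 68 (13.7%) lower in replicate 2, against 0 of the 6. Scaling by TMM (edgeR) gave 26 higher and 51 lower, while DESeq2's size factors gave 27 higher and 48 lower, and 0 of the 6 were called under either. At any fold, all 6 passed the adjusted p, 5 higher and 1 lower, the largest being 1.6e-26 for Mir98 by the exact test. So did 53.5% of all tested genes, 20.2% higher and 33.3% lower in replicate 2, and 92.7% of the 96 tested genes whose mean reached 1000 CPM. The test covers counting error only and compares the reads of these 2 libraries.

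Mirlet7d fell to 22380 CPM in replicate 2, against 41456 CPM in replicate 1, which is 1.85-fold lower. Its log2 ratio, replicate 2 over replicate 1, was -0.89 (95% interval from counting -0.90 to -0.88). Mirlet7g rose 1.48-fold in replicate 2, a log2 ratio of 0.57 (0.56 to 0.58). Scaled to all gene counts, Mirlet7d and Mirlet7g were thus the members that moved furthest, in opposite directions. With all reads as the denominator, the log2 ratios were 0.87 for Mirlet7g, 0.72 for Mirlet7e and -0.59 for Mirlet7d. The order of the sizes therefore depends on the scaling. Mirlet7e had a log2 ratio of 0.42 (0.40 to 0.43) and Mirlet7b of 0.27 (0.26 to 0.28). Mir98 had 0.15 (0.12 to 0.18) and Mirlet7i 0.11 (0.10 to 0.12). When counts were scaled to the family's own sum, Mirlet7i and Mir98 turned to -0.13 and -0.089 and Mirlet7d reached -1.13, so the direction of the smallest ratios depends on the scaling. Mirlet7d then passed the 2-fold call, which it did not pass under the scalings to all genes.

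Set against the spread of all genes, these ratios were not unusually large. The median absolute log2 ratio was 0.34 over the 6 genes, 0.51 over all 495 tested genes and 0.41 over the 96 that averaged at least 1000 CPM. Of those 96 genes, 21 others differed at least as much as Mirlet7d. The median signed ratio was 0.21 over the 6 genes and -0.19 over all tested genes. A further test, exactTest in edgeR, treated both libraries as 1 group to estimate a common biological coefficient of variation of 39.0%. That spread comes from the same differences that are then tested, so few calls follow from the construction and this test adds no support to the comparison above. Under it 0 of the 6 passed, and 22 of 495 genes had an unadjusted p under 0.05. For the 6 genes, unadjusted p-values lay between 0.334 and 0.791, and the adjusted p was 1 for each. With the adjusted p and 2-fold, 3 of 495 genes (0.606%) were called.

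**Figure D4:**
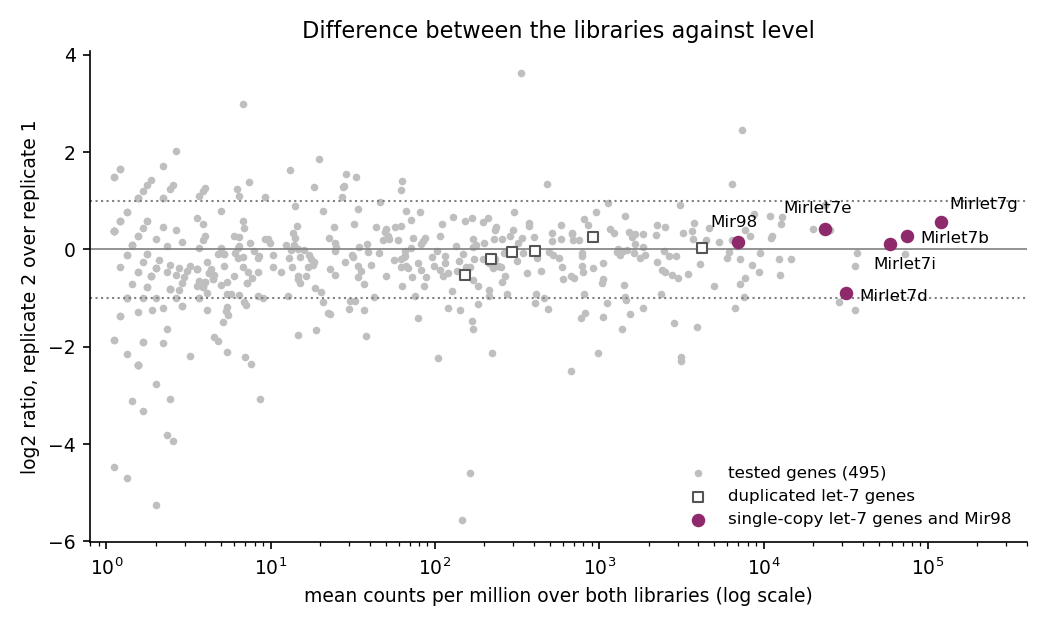
Log2 ratio of replicate 2 over replicate 1 (vertical axis) against mean CPM (log scale) for the 495 tested genes, with dotted lines at 2-fold. The single-copy genes lie between -0.89 (Mirlet7d) and 0.57 (Mirlet7g), inside the dotted lines.

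The libraries also differed as wholes. Unmapped reads made up 11.2% of replicate 2 and 29.0% of replicate 1, and multimapping reads 47.9% of replicate 2 and 36.2% of replicate 1. Of 13 neuronal marker microRNAs, 10 reached 1 CPM in both libraries and 0 were at 0. The 13 together took 5.49% of counts in replicate 2 and 6.94% in replicate 1. Mir132, the largest of them, had 18329 CPM in replicate 2 and 38949 CPM in replicate 1. Mir128-1, Mir128-2, Mir137 and Mir383 were higher in replicate 2, whereas Mir138-1, Mir138-2, Mir153 and Mir218-1 were lower. The sum therefore does not give the direction of neuronal markers in general. All 9 choroid plexus and ependyma markers reached 1 CPM in both, with a summed level of 1608 CPM in replicate 2, against 3525 CPM in replicate 1, and 0 were at 0. The largest difference in that sum was that of Mir34c, with 366 CPM in replicate 2 and 1597 CPM in replicate 1. Mir200b and Mir449a were slightly higher in replicate 2, and the other markers of this list were lower. Summed shares were 3.84% in replicate 2 and 2.97% in replicate 1 for endothelium and mural cells (3 of 4 markers at 1 CPM in both, Mir145b at 0). They were 0.540% in replicate 2 and 0.683% in replicate 1 for oligodendrocytes (3 of 3). Microglia and leukocyte markers (5 of 6 listed, 1 not matched by name) took 0.173% in replicate 2 and 0.172% in replicate 1. Erythroid markers (3 of 3) took 0.0136% in replicate 2 and 0.0138% in replicate 1. Among the erythroid markers, Mir144 (log2 ratio, replicate 2 over replicate 1, 1.48) and Mir451a (-0.57) went opposite ways. Of 10 muscle, liver and pancreas markers, 4 reached 1 CPM in both, and the list took 0.0380% in replicate 2 and 0.0645% in replicate 1. Of these 4, Mir375 was lower in replicate 2 (308 CPM, against 613 CPM in replicate 1). Mir122 (43.1 against 14.6 CPM) and Mir206 (26.3 against 15.1 CPM) were higher in replicate 2, and Mir217 slightly so. The 4 copies of the muscle microRNAs Mir1a and Mir133a had no count, but genes with several copies can lose their reads to the multimapping total, so this says nothing about muscle RNA. The neuronal copies Mir124a-1, Mir124a-2 and Mir124a-3 were near 0 too, with at most 13 counts in replicate 2 and 4 in replicate 1. These lists hold no marker of a single hippocampal layer, so that label could not be checked. The part of these differences in the ratios of the let-7 genes was not tested.

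The 6 genes lie on 6 chromosomes, each inside a longer transcript of the same strand (mm10, GENCODE M21). Mirlet7g (ENSMUSG00000065440.1) lies at chr9:106178840-106178927, + strand, in an intron of Wdr82, a subunit of SETD1 histone methyltransferase complexes. Mirlet7e (ENSMUSG00000105758.1) lies at chr17:17830352-17830444, + strand, in an intron of Spaca6, a gene needed for sperm and egg fusion in mice. Mir98 (ENSMUSG00000065536.2) lies at chrX:151913214-151913321, + strand, in an intron of Huwe1, a ubiquitin ligase gene. Wdr82, Spaca6 and Huwe1 are the protein-coding hosts, and no annotated exon of theirs overlaps these hairpins.

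The other 3 hairpins overlap exons of noncoding transcripts. Mirlet7b (ENSMUSG00000065564.1) lies at chr15:85707319-85707403, + strand, in an exon of Lncppara. Mirlet7d (ENSMUSG00000065453.1) lies at chr13:48536012-48536114, - strand, in an exon of the long noncoding RNA gene 6720427I07Rik. Mirlet7i (ENSMUSG00000065406.3) lies at chr10:122985640-122985724, - strand, within the transcribed pseudogene D630033A02Rik. It overlaps an exon in 1 of the 2 transcripts of D630033A02Rik and is intronic in the other. Small RNA libraries do not measure these hosts, so host and microRNA levels could not be compared.

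Within 10 kb on the same strand, 4 of the 6 genes have microRNA neighbours, and Mirlet7g and Mirlet7i have none. Mirlet7d lies with Mirlet7f-1 (1715 bases away) and Mirlet7a-1 (2065 bases away) in 6720427I07Rik. Of the counted reads of that cluster, Mirlet7d held 97.9% in replicate 2 and 98.7% in replicate 1. Mirlet7f-1 had 287 CPM in replicate 2 and 299 CPM in replicate 1. Mirlet7a-1 had 205 CPM in replicate 2 and 234 CPM in replicate 1. The neighbours did not share the size of the Mirlet7d difference. Their log2 ratios were -0.06 (-0.20 to 0.07) for Mirlet7f-1 and -0.19 (-0.34 to -0.03) for Mirlet7a-1, intervals from counting that lie apart from that of Mirlet7d. Both neighbours are duplicated genes, so these are the ratios of their uniquely placed reads only.

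Mirlet7b lies 622 bases from Mirlet7c-2 in Lncppara, and the counting intervals of their ratios overlapped. Mirlet7c-2 had 1000.4 CPM in replicate 2 and 836 CPM in replicate 1, a log2 ratio of 0.26 (0.18 to 0.34) beside 0.27 (0.26 to 0.28) for Mirlet7b. Neither mature strand of Mirlet7c-2 is unique to it: the 5p strand is shared with Mirlet7c-1 and the 3p strand with Mirlet7a-1. Its counts can therefore miss most of its mature reads, and no fold between the levels of the 2 genes is given. Mir98 lies 786 bases from Mirlet7f-2 in Huwe1. The 5p strand of Mirlet7f-2 is shared with Mirlet7f-1. Mir98 held 63.2% of the counts of that pair in replicate 2 and 61.1% in replicate 1, with log2 ratios of 0.15 (0.12 to 0.18) for Mir98 and 0.026 (-0.01 to 0.06) for Mirlet7f-2, whose counting intervals did not overlap. The same limit applies to these values of Mirlet7f-2.

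Mirlet7e lies 95 bases from Mir99b and 368 bases from Mir125a, microRNAs of other seeds that are transcribed with it. All 3 were higher in replicate 2, by unequal amounts. Mir99b had 9257 CPM in replicate 2 and 3635 CPM in replicate 1, a log2 ratio of 1.35, and was called. Mir125a had 15900 CPM in replicate 2 and 9945 CPM in replicate 1, a log2 ratio of 0.68, and Mirlet7e had 0.42. As a share of the cluster, Mirlet7e held 51.7% in replicate 2 and 59.8% in replicate 1, and Mir99b held 17.8% in replicate 2 and 10.8% in replicate 1.

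**Figure D5:**
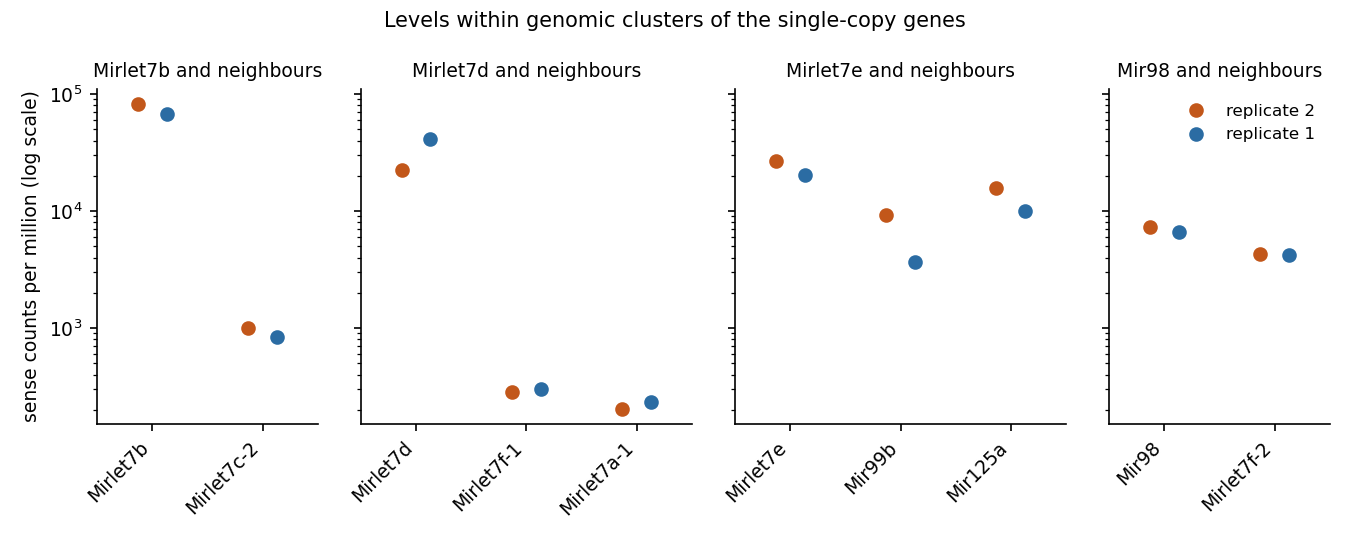
Sense CPM (log scale) in each library for the 4 single-copy genes that have microRNA neighbours within 10 kb on the same strand, with those neighbours. Mirlet7d stands above the counted reads of its duplicated neighbours and is lower in replicate 2, while Mirlet7e, Mir99b and Mir125a are all higher in replicate 2.

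The strand of the reads mattered for 1 of the 6 genes. On the opposite strand of Mirlet7e the annotation holds Gm25927, a predicted hairpin. In the unstranded column Mirlet7e therefore read 0 in both libraries, whereas its sense counts were 121821 in replicate 2 and 45574 in replicate 1. The same 121821 and 45574 counts stood as antisense counts of Gm25927, which had 0 sense counts in both libraries. They equalled 29.1% of the ambiguous reads of the unstranded column in replicate 2 and 25.3% in replicate 1. For the other 5 genes the sense and unstranded counts were equal, except for 3 antisense counts at Mirlet7b in replicate 2. Sense reads thus made up practically all reads at these hairpins.

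The genes most like each of the 6 by level in both libraries were sought outside the let-7 family only. Likeness was the distance in log2(CPM + 1) over the 2 libraries, among the 89 genes outside the family that averaged at least 1000 CPM. Mir139 was nearest to Mirlet7g, Mirlet7b and Mirlet7i (distances 1.10, 0.26 and 0.46), and Mir744 was next for each of these 3. Mirlet7d was nearest to Mir99a (0.29) and Mir132 (0.30), which were also lower in replicate 2, with log2 ratios of -1.25 and -1.09. Mirlet7e was nearest to Mir126a (0.16) and Mir23b (0.34), which were also higher in replicate 2, at 0.41 and 0.42. Mir98 was nearest to Mir30d (0.06) and Mir382 (0.18). With 2 libraries, this likeness describes level and the difference between these libraries only. The distance uses both values, so a shared direction between the libraries is favoured by the selection and is no separate result.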

How the data were processed

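Per the file headers, the authors deposited raw counts per microRNA gene for each library (assembly mm10, annotation GENCODE M21), in 3 columns: unstranded, sense and antisense. Aligner and counter were not given in the sources used here. Names of all 2202 genes came from GENCODE M21. The 4 rows of totals name no gene and were kept out of library sizes: they held 62.8% of the reads in replicate 2 and 69.8% in replicate 1. Sense counts were scaled to CPM on each library's gene sum. A pseudocount of 0.5 counts entered log2 ratios. Intervals are exact 95% Poisson, binomial or conditional binomial (scipy 1.17.1) and cover counting error only, since PCR reads are not independent molecules. Scaling factors and an alternative test came from edgeR 4.0.16 and DESeq2 1.42.0. With 1 group no replicated contrast exists. The test was checked on simulated counts for this comparison. With 50 genes in each changed set, it called 100% of those changed 4-fold in either direction. Of those changed 2.5-fold, it called 100% made lower and 74% made higher. It also called 2.44% of 287 unchanged genes, of 487 tested. The simulated counts held counting error only, so these rates do not carry over to libraries that differ by more. Changed genes were not drawn from the most abundant genes, so the highest members could not be among them. Named genes were the 6 members, the other let-7 genes, neighbours within 10 kb on the same strand and the 2 genes nearest in level. Mir7k, Mir1961, Gm25927 and the genes of the marker lists are named besides. Members and lists were chosen with earlier results of these data known. No genome sequence was used here. The stretch between the arms of 1 member is not reported here.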

Additional observations from a re-analysis of the deposited data

Results flagged for a closer look

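The antisense column was outside the main measurement and held counts above the limit that a count of 0 allows at 1 hairpin opposite a single-copy let-7 gene. Gm25927, opposite Mirlet7e, had 121821 antisense counts in replicate 2 and 45574 in replicate 1. They equal the sense counts of Mirlet7e in each library.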

How the results depend on the processing

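The share of family counts in the 6 genes kept its value, within 1 SD, under all 6 alternatives tried. Adding Mir7k and Mir1961, 1 of them, was chosen after seeing the data and added at most 3 counts per library. Antisense counts at the family genes were also at most 3. With 2 libraries, leaving 1 out or summing both must stay within 1 SD of the mean. Of the 6, the unstranded column alone could thus have moved this share. The share of all counts kept its value under 4 alternatives, which include leaving out either library. It was 10.8% when all reads formed the denominator, because that denominator also holds unmapped and multimapping reads. The count of called genes was 53 with a minimum of 10 CPM and 15 with a minimum of 1000 CPM (added after seeing the data), since fewer genes were tested. It was 141 at 1.5-fold, where Mirlet7d was called too, and 3 by edgeR's exactTest with the common dispersion. It stayed within 1.5 times of 87 under the other 4. Scaled to the family sum, the log2 ratio reversed to -0.13 for Mirlet7i and -0.089 for Mir98, because that scaling shifts every ratio by -0.24, and Mirlet7d passed 2-fold. The other 32 of 35 member ratios kept direction and call. Of these, 6 belong to edgeR's exactTest, which reuses the main ratios, all under 2-fold, so they could not change. Mirlet7d minus Mirlet7e was -4564 CPM in replicate 2 alone and 21254 CPM in replicate 1 alone. The unstranded column gives no ratio for Mirlet7e. The calls have no value with 1 library left out. No paired analysis was possible because there is 1 group. Which strand of a hairpin was counted, and reads shorter than 17 bases, limit what can be told apart.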
